A study of Mus musculus with 4 samples.

Results

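Bile acid transporters are the membrane proteins that carry bile acids into and out of hepatocytes. Their transcripts were followed in the liver of mice after hepatectomy, the surgical removal of part of the liver. The 10 genes were listed by symbol and role. They are the sinusoidal uptake carriers Slc10a1, Slco1a1, Slco1a4 and Slco1b2, the canalicular exporters Abcb11 and Abcc2, and the basolateral exporters Abcc3, Abcc4, Slc51a and Slc51b. All 10 were found among the 24421 symbols of the deposited RNA-seq table. The control group (2 libraries) came from hepatectomized mice given fibrin gel, a clotted protein matrix. The gelADSC group (2 libraries) came from hepatectomized mice given the same kind of gel with ADSC (adipose-derived stem cells) embedded in it. All mice had therefore had a hepatectomy and received a gel, and no group without either was analysed here. The strain, sex and age of the mice, the source of the ADSC and the time after surgery are not stated in the labels. No label says that libraries of a group came from separate animals, so p-values measure the spread between these libraries, which may be technical.

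Bile acids circulate between liver and gut. Hepatocytes take them up from portal blood at the sinusoidal membrane, through the sodium-coupled carrier encoded by Slc10a1 and the sodium-independent organic anion carriers of the Slco family. They secrete bile acids into the bile canaliculus through the bile salt export pump, encoded by Abcb11, while Abcc2 exports conjugated organic anions. Abcc3, Abcc4 and the 2-subunit carrier formed by Slc51a and Slc51b can return bile acids to blood across the basolateral membrane, and their transcripts are known to increase in cholestasis. The nuclear receptor FXR, encoded by Nr1h4, binds bile acids and is known to activate Abcb11, Slc51a, Slc51b and the corepressor gene Nr0b2.

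The promoters of 4 members are shown. Abcb11, Slc51a and Slc51b were taken as textbook FXR targets. Slco1b2 was taken as the other member whose promoter matched the same inverted repeat pattern as Abcb11, though not in the same letters. Sequences are from RefSeq, build GRCm38.p6, and run from 250 bases before to 50 bases after the gene start. They lie at chr2:69342567-69342866, minus strand, for Abcb11, chr6:141629268-141629567, plus strand, for Slco1b2, chr9:65422724-65423023, minus strand, for Slc51b and chr16:32487830-32488129, minus strand, for Slc51a. Capitals mark matches, on either strand, to the inverted repeat GGNCANTGNCC, in which N is any base, and to the nuclear receptor half-sites AGGTCA and GGGTCA. In Abcb11 and Slco1b2 a half-site overlaps the inverted repeat and ends 1 base beyond it, so the capitals form 1 run.
Abcb11 promoter: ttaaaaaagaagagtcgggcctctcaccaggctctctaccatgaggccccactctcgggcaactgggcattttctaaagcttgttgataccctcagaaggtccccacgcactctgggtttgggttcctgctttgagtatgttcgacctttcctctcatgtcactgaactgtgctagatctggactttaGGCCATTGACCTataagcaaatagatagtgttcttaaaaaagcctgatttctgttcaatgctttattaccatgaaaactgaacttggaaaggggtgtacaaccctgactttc
Slco1b2 promoter: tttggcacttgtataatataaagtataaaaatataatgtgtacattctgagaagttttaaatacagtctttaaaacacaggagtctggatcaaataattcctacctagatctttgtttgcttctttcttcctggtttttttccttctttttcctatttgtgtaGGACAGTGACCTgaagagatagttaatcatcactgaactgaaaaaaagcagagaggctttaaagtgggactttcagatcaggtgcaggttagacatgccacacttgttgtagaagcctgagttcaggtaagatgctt
Slc51b promoter: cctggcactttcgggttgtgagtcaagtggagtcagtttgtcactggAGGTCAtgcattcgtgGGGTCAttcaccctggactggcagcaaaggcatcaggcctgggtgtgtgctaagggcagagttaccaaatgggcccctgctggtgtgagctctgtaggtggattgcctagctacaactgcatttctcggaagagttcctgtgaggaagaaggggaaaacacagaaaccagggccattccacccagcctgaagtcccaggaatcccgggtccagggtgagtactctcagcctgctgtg
Slc51a promoter: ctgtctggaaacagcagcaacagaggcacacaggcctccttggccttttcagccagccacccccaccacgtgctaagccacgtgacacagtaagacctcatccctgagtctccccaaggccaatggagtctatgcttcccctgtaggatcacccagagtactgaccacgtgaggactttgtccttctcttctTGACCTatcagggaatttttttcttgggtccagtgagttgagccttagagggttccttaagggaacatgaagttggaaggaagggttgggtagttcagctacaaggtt

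The inverted repeat began at -62 from the start in Abcb11 and at -87 in Slco1b2. It was found in 2 of the 11 promoter entries of the members and in 0.68% of 32851 promoters of the same length. The half-site AGGTCA stood in 7 of the 11 entries, against 16.26% of all promoters. In Slc51b that half-site began at -203 and GGGTCA at -187, while Slc51a held AGGTCA alone, at -58. GGGTCA was present in 2 of the 11 entries and in 13.7% of all promoters. Of the 10 members 9 had an entry, and Slc10a1 and Abcc4 had a pair each. The motifs were chosen after the sequences had been seen, and a match describes letters, not binding.

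Transcripts of 3 of the 4 uptake carriers and of Abcc2 were higher in the gelADSC livers, and those of the basolateral exporters Abcc3 and Slc51b were lower. Of the 10 members 4 rose (Slc10a1, Slco1a1, Slco1b2, Abcc2), 2 fell (Abcc3, Slc51b), 3 did not pass the test (Slco1a4, Abcb11, Abcc4) and 1, Slc51a, was listed at 0 in every library and not tested. Levels are FPKM (fragments corrected for gene length and for library depth), with mean ± SD over 2 libraries per group. A log2 change is the mean of log2(FPKM + 1) in gelADSC less that in control, tested with limma, two-sided, with Benjamini-Hochberg adjustment over 11070 genes and a threshold of 0.05. By that rule 6.92% of all tested genes were called higher, 17.5% lower and 24.4% in either direction. Without overlap between the groups were 19.2% of tested genes on the higher side and 50.5% on the lower, 69.8% in all. Over all tested genes the median log2 change stood at -0.25, so a gene at 0 lay above the middle of the distribution. In bulk tissue, fewer cells of a type and less RNA per cell cannot be told apart.

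The libraries held roughly 18100000 to 24400000 reads, inferred from the smallest steps of low values, with gelADSC library 2 the deepest. Libraries are called by the number in the column name. Hepatocyte markers were present in all libraries (Alb, serum albumin, read 22023 to 38330 FPKM). Of the 8 hepatocyte markers 1 rose (Fah) and 0 fell, with summed levels of 54806 and 65878 FPKM in control, against 45565 and 62635 FPKM in gelADSC.

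**Figure D1:**
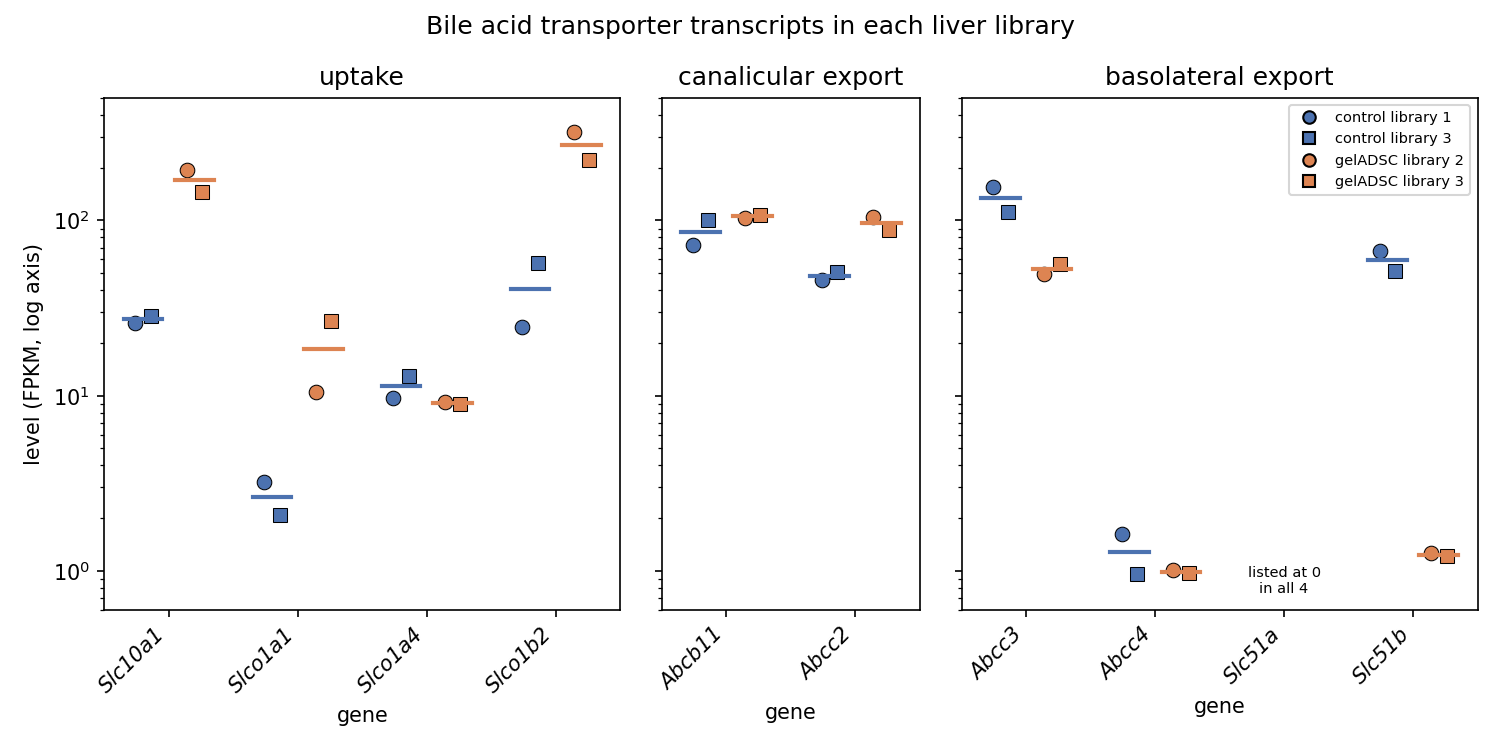
Level of each bile acid transporter transcript (FPKM, log axis) in the 2 control and 2 gelADSC libraries, with genes on the horizontal axis in panels by role; points are libraries and bars are group means. Slc10a1 and Slco1b2 stand well above their controls in both gelADSC libraries, Slc51b stands near 1.24 FPKM against 59.2 FPKM, and Slc51a is listed at 0.

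Among the uptake carriers 3 of 4 rose and 0 fell, with a median log2 change of 2.44. Slc10a1, which encodes the main sodium-dependent bile acid carrier (NTCP), read 26.1 and 28.5 FPKM in control libraries 1 and 3, against 194 and 145 FPKM in gelADSC libraries 2 and 3. Both gelADSC libraries lay far above both controls, and each pair was close. The means were 27.3 ± 1.73 and 170 ± 34.7 FPKM (SD, n = 2 each), a 6.22-fold rise with a log2 change of 2.58 (SE 0.21, limma adjusted p = 0.000172). Slco1b2 encodes OATP1B2, the liver-specific carrier of unconjugated bile acids and many drugs. It read 24.6 and 57.3 FPKM in control, against 319 and 222 FPKM in gelADSC. The control libraries differed from each other by 1.19 on the log2 scale, yet the groups stood well apart. The log2 change was 2.79 (SE 0.36, limma adjusted p = 0.00153).

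Slco1a1 encodes OATP1A1, a carrier of bile acids and steroid conjugates. Its level was 3.23 and 2.1 FPKM in control, against 10.5 and 26.6 FPKM in gelADSC libraries 2 and 3. The groups did not overlap, but gelADSC library 3 stood far above library 2, a gap of 1.26 on the log2 scale. The log2 change was 2.30 (SE 0.38, limma adjusted p = 0.00436), and 1.53 with a pseudocount of 5. That call was lost with no filter on low values (limma adjusted p = 0.056). It was also lost without control library 1 (log2 change 2.52) and without control library 3 (2.08). Fits that leave 1 library in a group take the spread from the other group. Here and below, calls lost in such fits are therefore not comparable with those of the full fit.

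Slco1a4, which encodes the related carrier OATP1A4, behaved otherwise. It read 9.67 and 12.9 FPKM in control, against 9.18 and 8.93 FPKM in gelADSC. The gelADSC values lay just below the controls without overlap. The difference did not pass the test, with a log2 change of -0.27 and a 95% interval of -0.75 to 0.20 (limma adjusted p = 0.357), and its sign turned to 0.01 with quantile normalization. The interval lies wholly below those of the other uptake carriers, of which the lowest began at 1.43 for Slco1a1. No direct test of that difference between genes was made.

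Shares of the uptake transcripts are given as a description, without a test. Slco1b2 held 38.7% and 56.8% of the summed FPKM of the 4 carriers in the controls and 59.8% and 55.1% in gelADSC. Slc10a1 held 41% and 28.3% in the controls and 36.5% and 36.1% in gelADSC. Slco1a4 held 15.2% and 12.8% in the controls and 1.7% and 2.2% in gelADSC. Slco1a1 stayed a small part in each library, between 2% and 6.6%. The sum itself read 63.6 and 101 FPKM in control, against 533 and 402 FPKM in gelADSC. Slco1a1 and Slco1a4 are near relatives in sequence, but little of either is identical. Of all 50-base stretches in their GENCODE M21 transcripts, 1.64% for Slco1a1 and 1.61% for Slco1a4 also occur in another gene.

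Of the canalicular exporters 1 of 2 rose. Abcc2 encodes MRP2, which exports bilirubin glucuronides, glutathione conjugates and divalent bile acid conjugates into bile. It read 45.5 and 50.7 FPKM in control, against 105 and 88.5 FPKM in gelADSC. Both gelADSC libraries exceeded both controls, by more than either pair differed. The means were 48.1 ± 3.65 and 96.6 ± 11.5 FPKM (SD, n = 2 each), a ratio of 2.01, with a log2 change of 0.99 (SE 0.19, limma adjusted p = 0.00867). Without control library 1 the call was lost, and with 1 library left out the log2 change ran from 0.87 to 1.11.

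Abcb11, the rate-limiting pump of canalicular bile salt secretion, was among the most abundant members in both groups. It read 72 and 101 FPKM in control, against 104 and 108 FPKM in gelADSC. Control library 3 lay close to the gelADSC libraries and control library 1 below them. The log2 change was 0.31 with a 95% interval of -0.18 to 0.81 (limma adjusted p = 0.303), and it did not pass the test under any of the 11 alternatives. Of the Abcb11 exon bases 155 of 5146 are overlapped by genes on the opposite strand in GENCODE M21.

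Among the basolateral exporters 2 of the 3 that were tested fell and 0 rose. Slc51b encodes the beta subunit of the organic solute transporter, which is required for the carrier to reach the membrane. It read 66.8 and 51.6 FPKM in control, against 1.26 and 1.22 FPKM in gelADSC. The groups stood far apart, while the control libraries differed from each other by 0.37 on the log2 scale. The means were 59.2 ± 10.8 and 1.24 ± 0.0277 FPKM (SD, n = 2 each), 47.8 times higher in control, with a log2 change of -4.74 (SE 0.21, limma adjusted p = 1.14e-05). The gelADSC mean lay near the pseudocount of 1, so the size of the log2 change depended on it. That change was -5.46 with a pseudocount of 0.1 and -3.35 with one of 5. With the approximate depths and an exon length of 709 bases, the levels correspond to roughly 944 and 663 reads in the controls and 21 and 17 reads in gelADSC. At so few reads, the closeness of the gelADSC pair is no measure of precision. In GENCODE M21, 91 of these bases are overlapped on the opposite strand by Rasl12, which read 0.214 to 0.66 FPKM in the controls and 0.0384 to 0.116 FPKM in gelADSC. Whether strand was used in counting is not given in the sources used here.

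Slc51a encodes the alpha subunit, the obligate partner of Slc51b. It was listed at 0 in all 4 libraries, including the controls in which Slc51b exceeded 50 FPKM. An exact 0 can also be a failed estimate in such a table, since Rpl26, a ribosomal protein gene, was listed at 0 in all 4 libraries as well. No level or fold is therefore given for Slc51a. Of its 3198 exon bases 567 are overlapped on the opposite strand by Pcyt1a.

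Abcc3 encodes MRP3, a basolateral exporter of glucuronides and bile acids. It read 156 and 112 FPKM in control, against 49.5 and 56.2 FPKM in gelADSC. Both gelADSC libraries were below both controls. The mean was 2.53 times higher in control (134 ± 31.3 against 52.9 ± 4.7 FPKM, SD, n = 2 each), with a log2 change of -1.31 (SE 0.22, limma adjusted p = 0.00451). Without control library 1, the higher of the pair, the log2 change was -1.07 and the call was lost. The log2 change ran from -1.55 to -1.02 over the 11 alternatives.

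Abcc4 encodes MRP4, which exports bile acids together with glutathione and also carries cyclic nucleotides. It was low everywhere, at 1.63 and 0.956 FPKM in control, against 1.01 and 0.977 FPKM in gelADSC. The groups overlapped. The log2 change was -0.19 with a 95% interval of -0.74 to 0.37 (limma adjusted p = 0.602), and it was 0.03 without control library 1. Its mean lay just above the filter of 1 FPKM, and roughly 111 to 207 reads stood behind each value.

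**Figure D2:**
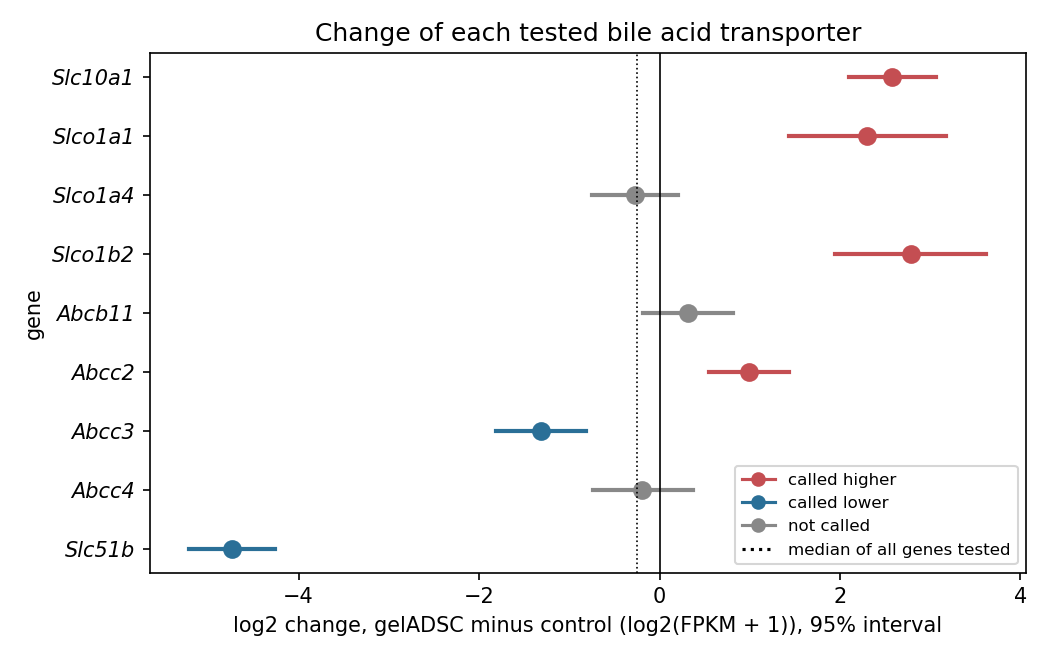
Log2 change (gelADSC minus control, on the log2(FPKM + 1) scale) of the 9 tested members on the horizontal axis, with 95% intervals from limma; the dotted line marks the median of all tested genes at -0.25. The intervals of Slco1a4, Abcb11 and Abcc4 cross 0, and Slc51b lies lowest at -4.74.

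The order of the members by level differed between the groups. In control the order of means was Abcc3, Abcb11, Slc51b, Abcc2, Slco1b2, Slc10a1, Slco1a4, Slco1a1 and Abcc4. The neighbours Abcc2 and Slco1b2, and Slco1b2 and Slc10a1, overlapped between libraries and cannot be ranked. In gelADSC the order was Slco1b2, Slc10a1, Abcb11, Abcc2, Abcc3, Slco1a1, Slco1a4, Slc51b and Abcc4, of which Abcb11 and Abcc2 overlapped. The basolateral exporters summed to 224 and 164 FPKM in control, against 51.8 and 58.4 FPKM in gelADSC. These sums count Slc51a at its listed 0, which can be a failed estimate. The canalicular exporters summed to 118 and 151 FPKM and to 209 and 197 FPKM. By listed values, the uptake carriers had the highest sum of the 3 roles in both gelADSC libraries, and the basolateral exporters in both controls.

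Some basolateral exporters are also expressed by bile duct cells. Of 11 bile duct markers 8 were tested, of which 3 fell and 0 rose, and none was at 0 in all libraries. For comparison, 17.5% of all tested genes were called lower and 6.92% higher. Their summed level was 211 and 334 FPKM in control, against 75.3 and 68.8 FPKM in gelADSC, most of it Spp1 (osteopontin), which read 150 and 298 FPKM and 52.1 and 43.5 FPKM. Sox9, a duct cell transcription factor, fell with a log2 change of -2.07 and Cldn4, a tight junction claudin, with -3.28. Cldn4 read 22.1 FPKM in control library 1 and 4.39 FPKM in library 3, against 0.181 and 0.11 FPKM in gelADSC. Krt19, a keratin of duct cells, was low in all libraries, at 4.75 and 1.85 FPKM in control, against 1.49 and 1.63 FPKM in gelADSC. The part of duct cells in the levels of Slc51b and Abcc3 was not tested. Calls in the other marker lists stand beside the same shares over all tested genes. Of 7 Kupffer cell and macrophage markers 0 rose and 1 fell, of 5 tested neutrophil and monocyte markers 0 and 1, of 6 sinusoidal endothelial markers 2 and 1, and of 7 stellate cell and fibroblast markers 2 and 0. None of the 5 lymphocyte markers passed the filter. Their summed level was 0.193 and 0.212 FPKM in control, against 1.36 and 2.44 FPKM in gelADSC, and 2 were called higher with no filter. Neither of the 2 tested markers of adipose stroma and fat passed the test.

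Genes of bile acid synthesis and conjugation rose in most cases, 11 of 16 tested, with 1 lower and a median log2 change of 1.44. The shares over all tested genes were 6.92% higher and 17.5% lower. Cyp7a1, the rate-limiting enzyme of the classic pathway, read 0 and 0.0132 FPKM in control, against 56.9 and 15 FPKM in gelADSC. Cyp8b1, the sterol hydroxylase needed for cholic acid, read 0.412 and 0.396 FPKM and 133 and 27.1 FPKM. Both were higher in gelADSC library 2 than in library 3, as was Slc10a1, whereas Slco1a1 was higher in library 3. Akr1c6, a hydroxysteroid dehydrogenase, and Cyp7b1, an enzyme of the alternative pathway, rose with log2 changes of 3.86 and 2.75. Akr1c6 has related genes, and the sequence it shares with them was not measured. The controls differed in Akr1c6, at 27.9 and 80.1 FPKM, and its change was between 3.11 and 4.60 with 1 library left out. The gene that fell was Acox2, a peroxisomal oxidase of side chain shortening, at a log2 change of -1.05, and it was picked out by its value.

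Receptors and transcription factors of bile acid handling went both ways, with 3 of 17 tested higher, 3 lower and a median of -0.03. Of all tested genes 6.92% were called higher and 17.5% lower, so the lower calls lie near the share over all genes. Nr1h4, which encodes FXR, read 16.2 and 20.4 FPKM in control, against 57.1 and 36.2 FPKM in gelADSC. Its log2 change was 1.28 (SE 0.25, limma adjusted p = 0.00898). That call was lost without control library 1 and with no filter (limma adjusted p = 0.0573 with no filter). With 1 library left out the log2 change ran from 0.96 to 1.6. Nr0b2, the FXR target that encodes the corepressor SHP, went the other way, from 66.3 and 70.7 FPKM to 24.3 and 28 FPKM. Its log2 change was -1.36 (SE 0.19, limma adjusted p = 0.00193), called under all 11 alternatives. Among the FXR targets named earlier, Nr0b2 and Slc51b were thus lower, Abcb11 did not pass the test and Slc51a was not tested. The other genes were not sorted by whether FXR activates them, so this says nothing of FXR targets as a whole. Hnf4a, the hepatocyte lineage factor, read 168 and 197 FPKM in control, against 157 and 179 FPKM in gelADSC (log2 change -0.12, limma adjusted p = 0.686), a sign that turned with median ratio scaling (0.17) and quantile normalization (0.01).

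Cebpa, a hepatocyte differentiation factor, rose with a log2 change of 1.40. Klb, the co-receptor of the hormone FGF15 in hepatocytes, rose with 1.07 (limma adjusted p = 0.0462), a call lost in 4 of 10 alternatives (log2 change from 0.54 to 1.6). The other receptors that fell were Nr1i2, the xenobiotic receptor PXR, with -1.06, and S1pr2, a receptor of conjugated bile acids, with -0.87, both picked out by their values. With either scaling 1 gene of the list was lower, Nr0b2, so the calls of Nr1i2 and S1pr2 were lost there. Leaving out control library 1, or the filter on low values, had the same effect.

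The other canalicular transporters and flippases held 1 gene of 9 tested that rose and 4 that fell, with a median of -0.42. Over all tested genes 6.92% were called higher and 17.5% lower. Abcb4, the floppase that supplies phosphatidylcholine to bile, read 216 and 239 FPKM in control, against 58.1 and 74.2 FPKM in gelADSC. Its log2 change was -1.78 (SE 0.20, limma adjusted p = 0.000875), so it fell while Abcb11, its partner in bile formation, did not pass the test. Abcb1a, an efflux pump of hydrophobic drugs, fell with -2.37. Abcg5, which forms the canalicular cholesterol exporter with Abcg8, fell with -0.92. The Abcg5 call was lost with median ratio scaling (limma adjusted p = 0.0547) and without control library 1 (log2 change -0.95). Slc47a1, a proton-coupled exporter of organic cations, rose with 1.95.

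Among the other Slc10, Slco and Abcc genes 12 of 22 were tested, of which 3 rose and 3 fell, with a median of -0.05. Beside these stand 6.92% called higher and 17.5% called lower over all tested genes. Slc10a5, an orphan relative of Slc10a1, read 1.09 and 1.58 FPKM in control, against 16.2 and 15.4 FPKM in gelADSC, a log2 change of 2.86. Slc10a6, a carrier of sulfated steroids, went from 2.6 and 1.82 FPKM to 0.116 and 0.0467 FPKM, a log2 change of -1.56 that ranged from -3.68 with a pseudocount of 0.1 to -0.50 with one of 5. Abcc6, an ATP-binding cassette protein whose loss causes ectopic mineralization, rose with 1.70. Slc10a3 fell with -1.10, a call that was lost in 5 of 10 alternatives (log2 change from -1.56 to -0.59). Members of the same families as the uptake carriers thus differed in direction.

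Scaffold and trafficking proteins of the transporters held 0 of 16 genes that rose and 4 that fell, with a median of -0.51. The share of all tested genes called higher was 6.92% and called lower 17.5%. Ezr, which encodes the membrane-cytoskeleton linker ezrin, read 16.2 and 10.7 FPKM in control, against 3.67 and 3.65 FPKM in gelADSC, a log2 change of -1.60. Rdx, also on the list, read 32.4 and 29.5 FPKM in control, against 45 and 39.8 FPKM in gelADSC. The Rdx difference did not pass the test (log2 change 0.44, limma adjusted p = 0.114), and Rdx was picked out by its value. Rab11a, a GTPase of recycling endosomes that carry canalicular transporters, fell with -1.12, a call lost without control library 1 (log2 change -0.91). Stxbp2, a partner of apical syntaxins, fell with -0.70, a call lost in 7 of 11 alternatives (log2 change from -0.9 to -0.38). With either scaling 1 gene of this list was higher.

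**Figure D3:**
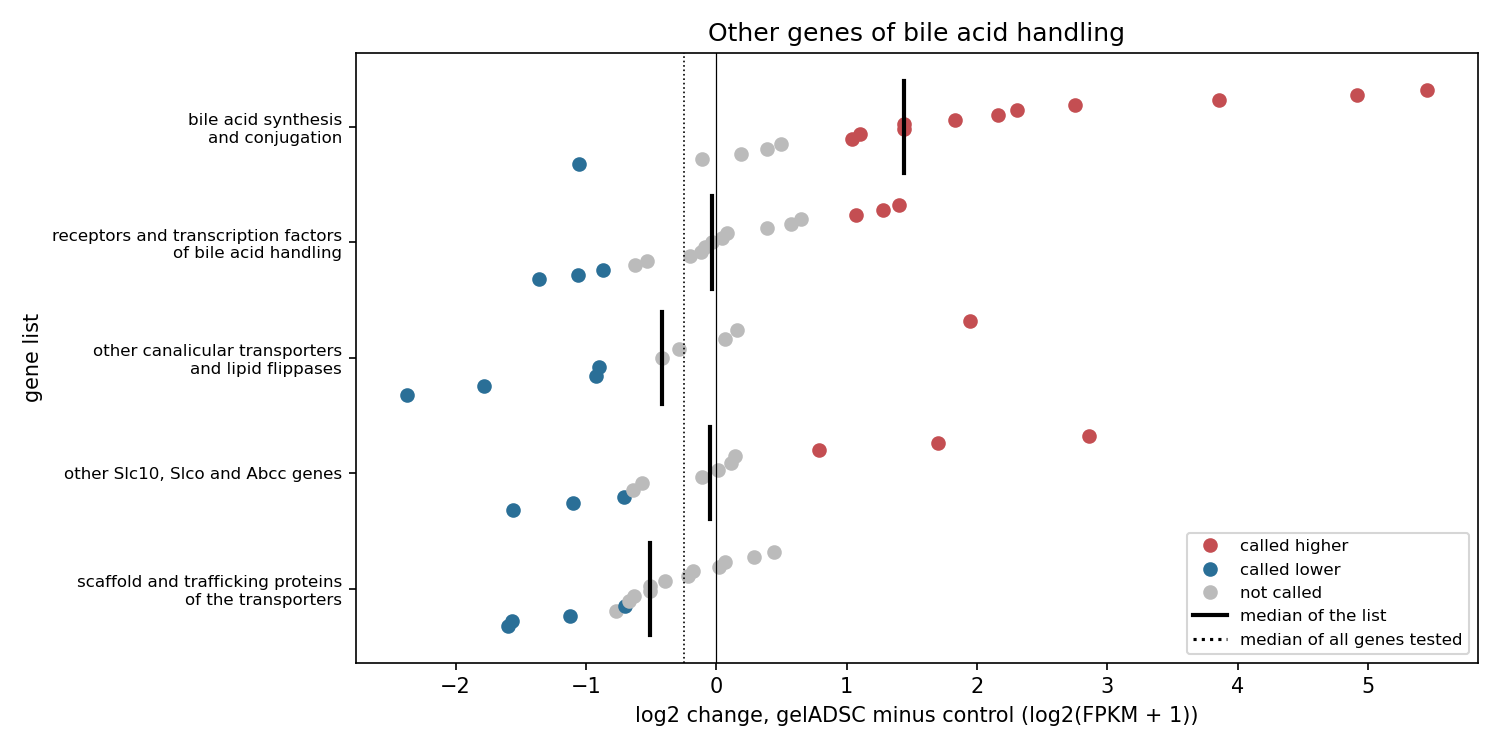
Log2 change (gelADSC minus control) of the tested genes of each list on the horizontal axis, with lists on the vertical axis; points are genes coloured by call, the black bar is the list median and the dotted line the median of all tested genes at -0.25. Synthesis genes lie mostly to the right with a median of 1.44, and the other lists lie between -0.51 and -0.03 in the median.

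Genes whose pattern over the 4 libraries was most like that of a member were found by the root mean square difference of centred log2 levels. For Slc10a1 these were Cml1 (0.058), Ttc39c (0.092) and Sardh (0.118), the last of which encodes the mitochondrial sarcosine dehydrogenase. Ttc39c read 15.7 and 19.1 FPKM in control, against 111 and 93.8 FPKM in gelADSC. For Slc51b they were Gml2 (0.221), Ier3 (0.299) and Mup15 (0.321), of which Ier3 is an immediate early gene. Ier3 read 48 and 50.6 FPKM in control, against 1.88 and 1.41 FPKM in gelADSC. Gml2 and Mup15 have related genes, and the sequence shared with these was not measured, so their levels are uncertain. Likeness over 4 libraries in 2 groups rests mainly on the size of the group difference.

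**Figure D4:**
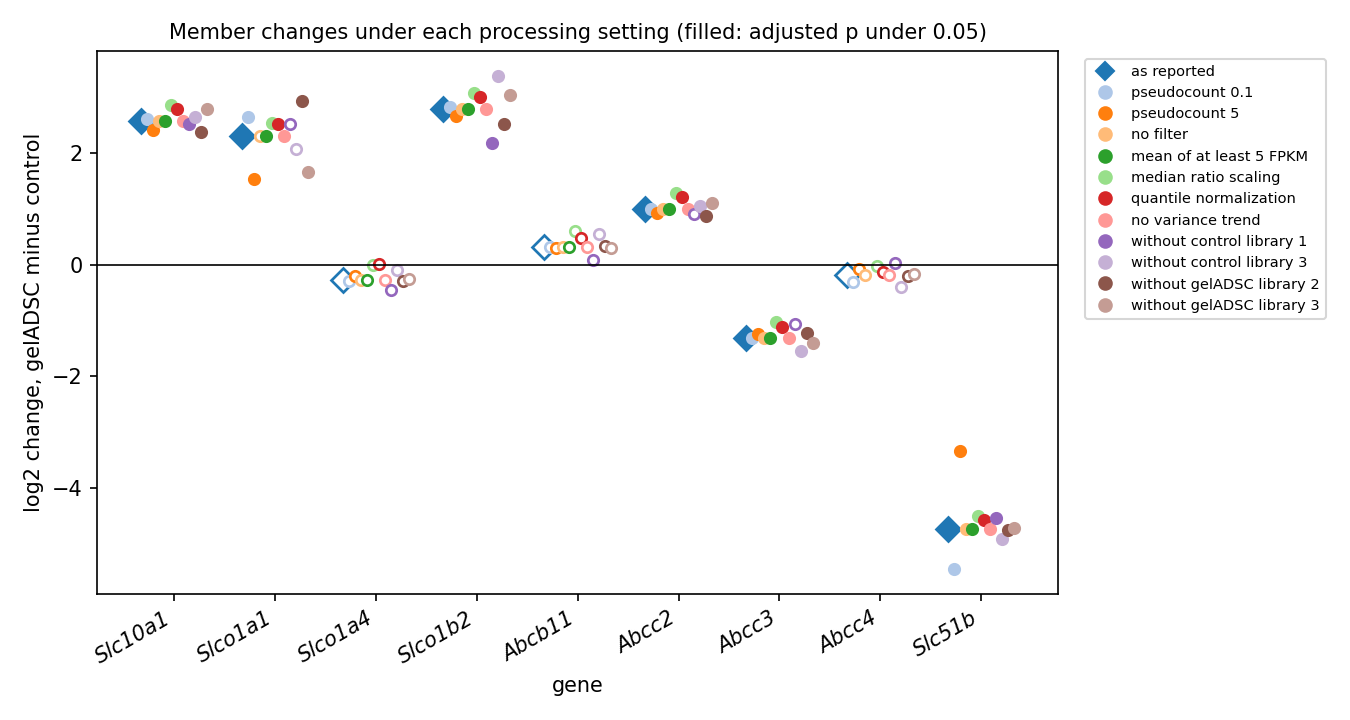
Log2 change (vertical axis) of the 9 tested members as reported (diamonds) and under each of the 11 alternative settings (circles), filled where the limma adjusted p was under 0.05. Slc10a1, Slco1b2 and Slc51b are filled throughout, while Slco1a1, Abcc2 and Abcc3 have open circles at the settings named for them above.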

How the data were processed

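Polyadenylated RNA from 4 liver samples was sequenced (2 control, 2 gelADSC). Per the labels' protocols, an RNeasy Mini kit served for extraction and a TruSeq stranded mRNA kit for the libraries. The deposited values were taken as FPKM, made by the authors, although the header names no unit. Trimmomatic 0.38, TopHat2 2.1.1 and Cufflinks 2.2.1 are named, per the submitters' processing notes. The same notes name hg19, a human build that cannot serve mouse symbols, so no measured value is tied to coordinates. Those printed belong to RefSeq's promoter sequences. Column numbers (1 and 3, 2 and 3) differ from the sample titles.

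Relative depth was the most frequent ratio of control library 1 to each other library, over genes with both values positive and under 0.2 FPKM. The check used genes with every value under 0.2 FPKM and more than 1 of them positive. After depth correction, 86.8% of 2163 such genes held whole multiples (at most 10) of 1 step, to within 0.001. Exon lengths of GENCODE M21 turned steps into approximate depths.

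Genes whose mean reached 1 FPKM were tested as log2(FPKM + 1), without further scaling, with limma 3.58.1 (mean-variance trend) in R 4.3.3. The procedure was tested on simulated data. Count tests were not used, since FPKM are not counts. Alternatives were pseudocounts of 0.1 and 5, no filter or one at 5 FPKM, median ratio scaling, quantile normalization, no variance trend, and leaving out each library. Members and lists were chosen with earlier results of these data known. Named were all members, up to 4 called genes with the largest change per list, Cyp7a1, Nr1h4, Nr0b2, Hnf4a, and the 3 genes most like Slc10a1 and Slc51b. Genes said to be picked out by their values were named beside these. One gene of the scaffold list is counted but not reported here by name. Of 150 list symbols Ly6g was unmatched and Tf was read as Trf.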

Additional observations from a re-analysis of the deposited data

How the results depend on the processing

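Of the members, Slc10a1, Slco1b2 and Slc51b kept their call and direction in all 11 alternatives, with log2 changes of 2.37 to 2.87, 2.19 to 3.38 and -5.46 to -3.35. Slco1a1 lost its call in 3, Abcc2 and Abcc3 in 1 each, without control library 1. Not called in any, Slco1a4 read 0.01 with quantile normalization and Abcc4 0.03 without control library 1 (-0.40 to 0.03 with 1 library left out). With 1 library left out, 2 to 4 members were higher and 1 to 2 lower, against 4 and 2 with all libraries. The higher calls over all genes ranged from 279 to 815, and the lower ones from 326 to 1765, both lowest without control library 1. With all libraries they were 766 and 1936, but 730 lower with no filter, 948 with median ratio scaling (952 higher) and 1000 with quantile normalization (931 higher). These scalings moved the median log2 change of all genes from -0.25 to 0 and -0.04. Of the other bile acid genes 18 were higher and 15 lower, with 9, 8 and 9 lower under the same 3 settings. With 1 library left out, 13 to 19 were higher and 5 to 14 lower. By list, over the 11 alternatives, synthesis genes gave 8 to 12 higher and 0 to 1 lower (11 and 1 as reported), receptors 1 to 5 and 1 to 3 (3 and 3), other canalicular genes 1 and 2 to 4 (1 and 4), other Slc10, Slco and Abcc genes 2 to 3 and 1 to 3 (3 and 3), and scaffold genes 0 to 1 and 1 to 6 (0 and 4). Bile duct markers gave 0 higher and 2 to 4 lower (0 and 3), hepatocyte markers 0 to 3 higher and 0 lower (1 and 0). Among other cell types the higher and lower calls ranged, in order, from 0 to 2 and 1 to 3 for Kupffer cells (0 and 1), 0 and 0 to 3 for neutrophils (0 and 1), 0 to 3 and 0 to 1 for endothelium (2 and 1) and 0 to 2 and 0 for stellate cells (2 and 0). Hnf4a read 0.17 under median ratio scaling and 0.01 under quantile normalization. In fits that leave 1 library in a group, the spread is taken from the other group. Their p-values and calls are therefore not comparable with those of the full fit. No paired analysis was possible because the column numbers of the groups share only one number and do not match those of the titles. Depth limits Slc51b in gelADSC (roughly 17 and 21 reads) most among the members above 0.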

Other observations

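Ratios of FPKM within a library do not depend on scaling between libraries. The following were chosen after the values had been seen and are descriptions. Abcc3 over Abcc2, the basolateral over the canalicular exporter of the same family, was 3.43 and 2.2 in control libraries 1 and 3 and 0.473 and 0.635 in gelADSC libraries 2 and 3. Abcb11 over Abcb4, bile salt pump over phospholipid floppase, was 0.333 and 0.42 in the controls and 1.79 and 1.46 in gelADSC. Slco1b2 over Slco1a4 was 2.54 and 4.46 in the controls and 34.8 and 24.8 in gelADSC. None of these ratios overlapped between the groups. Since the genes were paired with their changes known, this separation was built in and is no further evidence. Of single tested genes 69.8% did not overlap either.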
